A study of Homo sapiens with 2 samples.

Results

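The genes described here are 10 genes of the ER stress response and the integrated stress response, namely HSPA5, DDIT3, ATF4, XBP1, TRIB3, CHAC1, DNAJB9, HERPUD1, SESN2 and PPP1R15A. They were chosen by name, with earlier results of these data known. Their exons were found by position, as the exon rows on the stated strand inside a fixed hg19 window around each gene. The windows held 51 of the 239322 exon rows that the deposited files list. RNA was taken from Huh-7, a human hepatocellular carcinoma cell line at passages 15 to 20, treated for 24 h with 0.1% DMSO as the control or with BS008 at 0.1 mM. The sample characteristics give these treatments, while a protocol text that both samples carry names only BS008, and the label of the BS008 sample states no DMSO. BS008 is a derivative of the diuretic amiloride, and the study sequenced these libraries to ask how it alters alternative splicing. Each condition had 1 library, so no difference below has a replicate check and no test was made. The compound and any difference between the cultures or library preparations cannot be told apart. All intervals cover the sampling of reads only.

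Proteins that fail to fold in the endoplasmic reticulum (ER) activate the unfolded protein response. Its sensors are IRE1 (gene ERN1), PERK (EIF2AK3) and ATF6. IRE1 cuts the XBP1 mRNA, ATF6 is released as a transcription factor, and PERK phosphorylates the initiation factor eIF2α. Phosphorylation of eIF2α is the shared step of the integrated stress response, which other kinases also start when amino acids or haem are short or viral RNA is present. It lowers protein synthesis as a whole while translation of ATF4 goes up, and ATF4 then acts on genes of amino acid supply, redox balance and cell death. The liver, whose cells secrete much plasma protein, uses the unfolded protein response heavily.

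The promoters below are shown because each holds a sequence element through which these responses are known to act, with the element in capitals. The sequences are RefSeq sequences on GRCh38.p14, written 5′ to 3′ on the strand of the gene and ending before its start site. The RefSeq table held all 10 genes. Both strands of each table entry were searched, from 250 bases before the start site to 50 after it, and the stretches printed are the parts of these windows around the elements. The ER stress response element (ERSE), read here as CCAAT and CCACG with exactly 9 bases between them, was found in HSPA5 and XBP1 and in 0.0769% of all 35116 promoter windows in the table. The element ERSE-II, which is ATTGG, then any base, then CCACG, was found in HERPUD1 and in 0.0541% of promoters. The C/EBP-ATF response element (CARE), read here as TGATGNAA, through which ATF4 acts, was found in CHAC1 and HERPUD1, on the opposite strand in both, and in 3.62% of promoters. The cAMP response element TGACGTCA was found in PPP1R15A and in 1.85% of promoters. The element TGACGTGG, an XBP1 site, was found in 0 of the 10 genes and in 0.729% of promoters. ERSE and ERSE-II share the letters CCACG, which are also read on the opposite strand of TGACGTGG, and TGACGTGG and TGACGTCA share their first bases. These matches are descriptions of the sequence and not of binding.
HSPA5, chr9:125241344-125241469, minus strand, ERSE: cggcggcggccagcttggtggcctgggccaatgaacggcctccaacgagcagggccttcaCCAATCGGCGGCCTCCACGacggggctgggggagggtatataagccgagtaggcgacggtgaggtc
XBP1, chr22:28800570-28800681, minus strand, ERSE: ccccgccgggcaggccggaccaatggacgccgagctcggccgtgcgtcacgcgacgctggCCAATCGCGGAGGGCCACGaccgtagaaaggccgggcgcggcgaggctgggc
HERPUD1, chr16:56931906-56932095, plus strand, CARE and ERSE-II: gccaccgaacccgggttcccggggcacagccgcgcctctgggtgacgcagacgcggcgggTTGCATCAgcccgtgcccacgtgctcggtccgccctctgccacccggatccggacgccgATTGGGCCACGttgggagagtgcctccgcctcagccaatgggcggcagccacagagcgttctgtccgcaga
CHAC1, chr15:40953221-40953329, plus strand, CARE: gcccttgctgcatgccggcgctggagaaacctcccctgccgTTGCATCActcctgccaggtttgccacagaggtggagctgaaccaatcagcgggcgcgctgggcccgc
PPP1R15A, chr19:48872303-48872420, plus strand, cAMP response element: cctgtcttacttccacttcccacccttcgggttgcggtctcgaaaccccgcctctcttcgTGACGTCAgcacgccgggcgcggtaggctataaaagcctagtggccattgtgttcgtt

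The exon rows carry no gene names, so the structure of each gene was compared with GENCODE release 29, by the lengths of introns and exons and without converting coordinates. For 9 of the 10 genes most introns of a GENCODE transcript were found by exact length. ATF4 is listed as a single row and was taken from its window alone. The libraries held 55476654 counts (control) and 53578432 counts (BS008). The hepatocyte marker ALB had 274038 and 308359 reads, AFP 133300 and 88052, APOB 478822 and 213405, and TTR 570 and 389. The leukocyte marker PTPRC had 0 reads in both libraries, which allows a share of up to 5.41e-06% of the control library and 5.6e-06% of the BS008 library. The fibroblast marker COL1A2 had 0 and 2. The part that the lower APOB and AFP counts have in the results below was not tested.

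Of the 10 genes, 6 were at least 2-fold higher in BS008-treated cells and 0 were lower by that much. The highest ratios were those of PPP1R15A, DDIT3 and DNAJB9, at 15.0-fold, 7.48-fold and 6.67-fold. HERPUD1, ATF4 and HSPA5 were higher by less than 2-fold, and XBP1 was the only one of the 10 with fewer reads per library total. A gene was called on the log2 ratio of its summed reads, scaled to a library total of 1000000 counts (CPM), with 0.5 added to each value, whereas the folds printed here are ratios of CPM without that addition. Because the files name no genes, the background was taken from runs of exon rows on the same strand, each row within 10 kb of the next. A run can hold part of a gene or several genes, so shares of runs are not shares of genes. There were 24004 such runs with 10 or more counts in one library or the other. BS008 cells were at least 2-fold higher in 6.62% of them and lower by that much in 5.11%. The median log2 ratio was 1.69 over the 10 genes and 0.01 over the runs. Because the genes were chosen with earlier results of these data known, this difference from the runs is a description and not independent support. In a bulk sample, more cells with an RNA and more of that RNA per cell cannot be told apart.

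**Figure D1:**
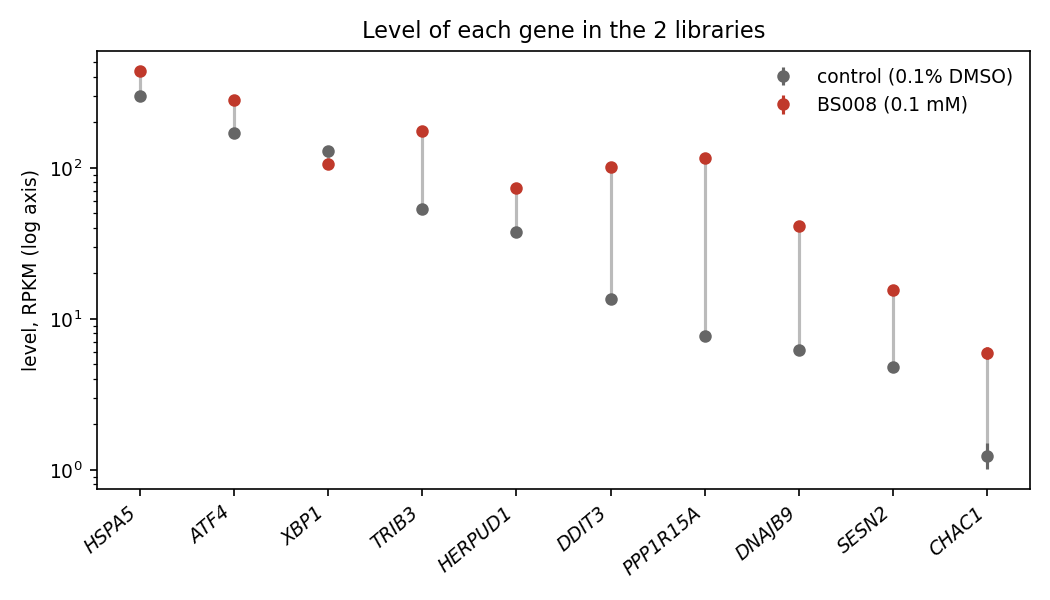
Level of each of the 10 genes in RPKM (reads per kilobase of exon, scaled to the library total, log axis) in the control library (grey) and the BS008 library (red), ordered by the control level, with bars for the exact 95% Poisson interval where they exceed the symbol. PPP1R15A moved from 7.71 to 115 RPKM, the widest gap, and XBP1 alone lay lower after BS008, at 106 against 129 RPKM.

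Levels per length separated the genes into abundant and scarce transcripts in the control. In control cells HSPA5 was highest at 301 RPKM (exact 95% Poisson interval 298 to 303), followed by ATF4 at 169 (166 to 171), XBP1 at 129 (127 to 131), TRIB3 at 53.1 (51.9 to 54.2) and HERPUD1 at 37.7 (36.9 to 38.6). DDIT3 stood at 13.4 RPKM (12.6 to 14.4), PPP1R15A at 7.71 (7.24 to 8.20), DNAJB9 at 6.20 (5.78 to 6.64), SESN2 at 4.77 (4.46 to 5.08) and CHAC1 at 1.24 (1.01 to 1.49). No neighbours in this order had overlapping intervals. In BS008-treated cells HSPA5 (437 RPKM; 434 to 440), ATF4 (281; 278 to 284) and TRIB3 (174; 172 to 176) were highest. PPP1R15A came next at 115 RPKM (113 to 117), ahead of XBP1 at 106 (104 to 108) and DDIT3 at 101 (98.1 to 103). HERPUD1 (73.9 RPKM), DNAJB9 (41.4), SESN2 (15.6) and CHAC1 (5.93) followed, again with no overlap between neighbours. PPP1R15A thus moved from seventh place to just above XBP1, while HSPA5 and CHAC1 kept the ends of the order. The length used takes in every listed row of a gene. For ATF4 it is a single row of 2122 bases, whereas the GENCODE transcript compared has 1 intron, so intron bases may be included. For XBP1 the length includes a row of 999 bases, the length of a retained-intron exon, with 7.83% (control) and 7.28% (BS008) of its reads. For HERPUD1 a row of 1463 bases makes up much of the 3508 bases used, with 5.95% (control) and 9.11% (BS008) of its reads. The places of XBP1 and HERPUD1 in both orders therefore depend on the rows counted, and the intervals do not cover this.

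Among the genes that act on eIF2α and on transcription, PPP1R15A had the highest ratio and ATF4 the lowest of those with more reads after BS008. PPP1R15A (GADD34), the inducible subunit that brings protein phosphatase 1 to eIF2α, lies at chr19:49375649-49379318 on the plus strand in 3 exon rows. It went from 1019 reads in the control to 14716 with BS008, a ratio of 15.0 (exact 95% interval 14.03 to 15.9). Of the 24004 runs, 20 had a higher log2 ratio. Its 3 exon rows moved together, with 206, 675 and 138 reads in control cells against 3320, 9142 and 2254 after BS008, or 16.7-fold, 14.02-fold and 16.9-fold. ATF4, the transcription factor whose translation is favoured when eIF2α is phosphorylated, had 19874 and 31951 reads on its row (chr22:39916569-39918690, plus strand), a ratio of 1.66 (1.64 to 1.69). GENCODE lists 4 ATF4 pseudogenes and 1 of XBP1, and how reads that match several places were counted is not given in the sources used here, so the counts of these genes are uncertain to that extent.

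DDIT3 (CHOP), a transcription factor of the C/EBP family that is linked to cell death under prolonged ER stress, lies at chr12:57910373-57914300 on the minus strand. It went from 877 reads in the control to 6333 with BS008, a ratio of 7.48 (6.97 to 8.03). Both of its downstream rows overlap rows listed on the plus strand, and whether the counting used strand is not given in the sources used here, so the reads of both strands may not have been told apart. The plus-strand row at chr12:57911066-57911334, which lies inside the middle DDIT3 exon row, had 137 and 1071 reads, or 8.09-fold. The plus-strand row at chr12:57908737-57910432, which overlaps the end of the last DDIT3 exon row, had 1911 and 3270, or 1.77-fold. The last DDIT3 row itself had 600 and 4160 reads, or 7.18-fold. The first DDIT3 row, which overlaps no other row, had 53 and 439 reads, a ratio of 8.58 (6.44 to 11.6). On the log2 scale with 0.5 CPM added, this row was at 2.58 and the gene sum at 2.86.

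TRIB3, a pseudokinase that is a target of ATF4 and DDIT3, lies at chr20:361308-378201 on the plus strand. It went from 8386 reads in the control to 26555 with BS008, 3.28-fold (3.20 to 3.36), and was the most abundant of the genes called. Its first row went from 709 to 2211 reads and its last from 5357 to 16430, at 3.23-fold and 3.18-fold. CHAC1, an enzyme that breaks down glutathione, lies at chr15:41245636-41248717 on the plus strand. It was the scarcest of the 10 genes, with 107 and 496 reads, 4.80-fold (3.89 to 5.97). Of these reads, 92 and 425 were on its last exon row and 9 and 46 on its first. SESN2 (sestrin 2), which binds leucine and restrains mTORC1, lies at chr1:28586006-28609001 on the plus strand. It had 921 and 2907 reads, 3.27-fold (3.03 to 3.52), and all 10 of its exon rows were at least 2-fold higher.

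The ER-resident members differed among themselves. HSPA5 (BiP), the main Hsp70 chaperone of the ER, lies at chr9:127997127-128003661 on the minus strand. It went from 66135 reads in the control to 92799 with BS008, a ratio of 1.45 (1.44 to 1.47), and its 8 exon rows lay between 1.26-fold and 1.76-fold. Its first row went from 2449 to 3391 reads and its last from 23904 to 35846, at 1.43-fold and 1.55-fold. DNAJB9 (ERdj4), a J-domain partner of HSPA5, lies at chr7:108210356-108215292 on the plus strand. It had 815 and 5251 reads, 6.67-fold (6.20 to 7.19). Its first row went from 149 to 774 reads (5.38-fold; 4.51 to 6.45) and its last from 447 to 3239 (7.50-fold; 6.79 to 8.30), so both ends of the transcript moved the same way. HERPUD1, a membrane protein of ER-associated degradation, lies at chr16:56965748-56977793 on the plus strand. It had 7344 and 13895 reads, 1.96-fold (1.90 to 2.02), so its interval spans 2-fold, and with 0.5 CPM added its log2 ratio was 0.97, just below the limit. The nearest gene past the limit was SESN2 at a log2 ratio of 1.68. Scaling by TMM factors brought HERPUD1 to 1.02, past the limit.

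XBP1, the transcription factor whose mRNA is cut by IRE1, lies at chr22:29190549-29196560 on the minus strand. It went from 20370 reads in the control to 16168 with BS008, a ratio of 0.822 (0.805 to 0.839). HSPA5 and XBP1, the genes whose promoters hold the ERSE shown above, thus had ratios on opposite sides of 1. IRE1 removes an intron of 26 bases from an exon of 146 bases. That stretch is printed from a GENCODE transcript (chr22:28796094-28796179 on GRCh38, minus strand), with the removed bases in capitals, to show how small the difference between the forms is.
XBP1: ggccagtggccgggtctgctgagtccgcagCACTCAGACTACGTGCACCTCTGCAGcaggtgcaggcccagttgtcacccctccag
The deposited row at this place is 999 bases long, the length of the exon of the retained-intron transcript XBP1-206 that spans it. It went from 1594 reads in the control to 1177 with BS008, or 0.765-fold (0.708 to 0.825). A count on that row takes in both forms, so IRE1 splicing was not measured.

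**Figure D2:**
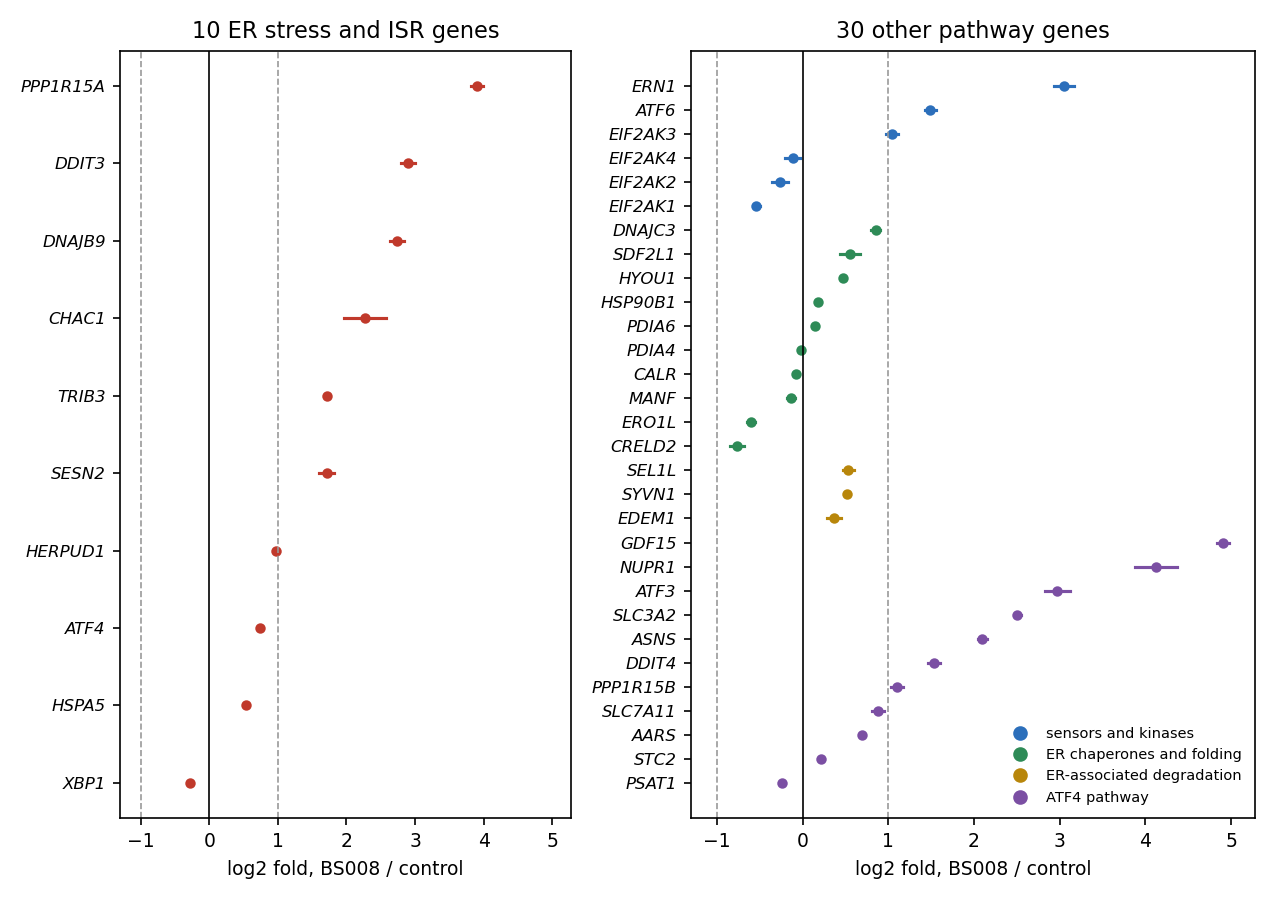
Log2 fold of BS008 over control, from summed reads per library total, for the 10 genes (left) and for 30 other pathway genes by role (right), with exact 95% intervals for read sampling; dashed lines mark 2-fold. Of the 10 genes, 6 lie beyond the right dashed line and XBP1 alone lies left of 0, and the ER chaperones on the right all lie within 2-fold.

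Single exons were then compared within these genes, since the study asked about splicing. Each of the 51 exon rows reached the minimum of 10 counts, and 30 of them were at least 2-fold higher and 1 lower by that much. Over all 131330 exon rows that reached it, the shares were 3.73% (higher) and 3.79% (lower). The rows of a gene come from the same transcripts and are not independent of each other. The share of a gene's reads on each row changed by at least 10 percentage points for 0 of the 50 rows of the 9 genes with several rows. Within runs, which can hold part of a gene or several genes, 2.65% of 156617 rows changed by that much. A count of 0 among 50 rows is near that background, although a share of a run and a share of a gene are not the same measure.

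The row that was lower belonged to XBP1. Its first row, chr22:29196286-29196560, went from 2255 reads to 599, a ratio of 0.275 (0.251 to 0.301). Its share of the XBP1 reads went from 11.1% (95% Wilson interval 10.6 to 11.5%) to 3.70% (3.42 to 4.01%). Without this row, XBP1 had 18115 and 15569 reads, 0.890-fold (0.871 to 0.909). The rows from the third to the last lay between 0.765-fold and 0.904-fold, and the last row, chr22:29190549-29191720, had 13878 and 12121 reads, its share going from 68.1% (67.5 to 68.8%) to 75.0% (74.3 to 75.6%). A row at chr22:29195948-29196121, which was singled out after its values had been seen, had 17 and 43 reads, 2.62-fold (1.46 to 4.90). It has the length, 174 bases, of the first exon of the GENCODE transcript XBP1-204, which starts downstream of the usual first exon. The first exon row of XBP1 was thus lower while this scarce alternative first exon was higher in reads per library total, although with 0.5 CPM added its log2 ratio was 0.69 and its 43 reads were few beside the 599 on the usual first exon.

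HERPUD1 differed along its length. Its first row, chr16:56965748-56966303, had 168 and 550 reads, 3.39-fold (2.85 to 4.05), whereas its last row, chr16:56977038-56977793, had 2074 and 3720, 1.86-fold (1.76 to 1.96). The rows between them were examined after their values had been seen. The second to the fourth row were 2.57-fold, 2.92-fold and 3.0-fold higher, and the fifth to the seventh 2.08-fold, 1.83-fold and 1.63-fold higher. The fourth row, 1463 bases at chr16:56969863-56971325, is the longest of the gene, and had 437 and 1266 reads. The 3′ rows held more of the reads, so the gene sum followed them.

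SESN2 showed the widest move in share of the 51 rows. Its last row, chr1:28607227-28609001, had 542 and 1425 reads, 2.72-fold (2.46 to 3.01), and its share of the SESN2 reads was 58.8% (55.6 to 62.0%) in control cells and 49.0% (47.2 to 50.8%) after BS008, a change of -9.83 percentage points. The first row had 42 and 134 reads, 3.30-fold (2.32 to 4.79). The second and the third row, singled out after their values had been seen, had 7 and 65 reads (9.61-fold; 4.41 to 24.9) and 10 and 100 reads (10.4-fold; 5.40 to 22.3). With 7 and 10 reads in control cells, the size of these ratios is known only within wide limits.

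**Figure D3:**
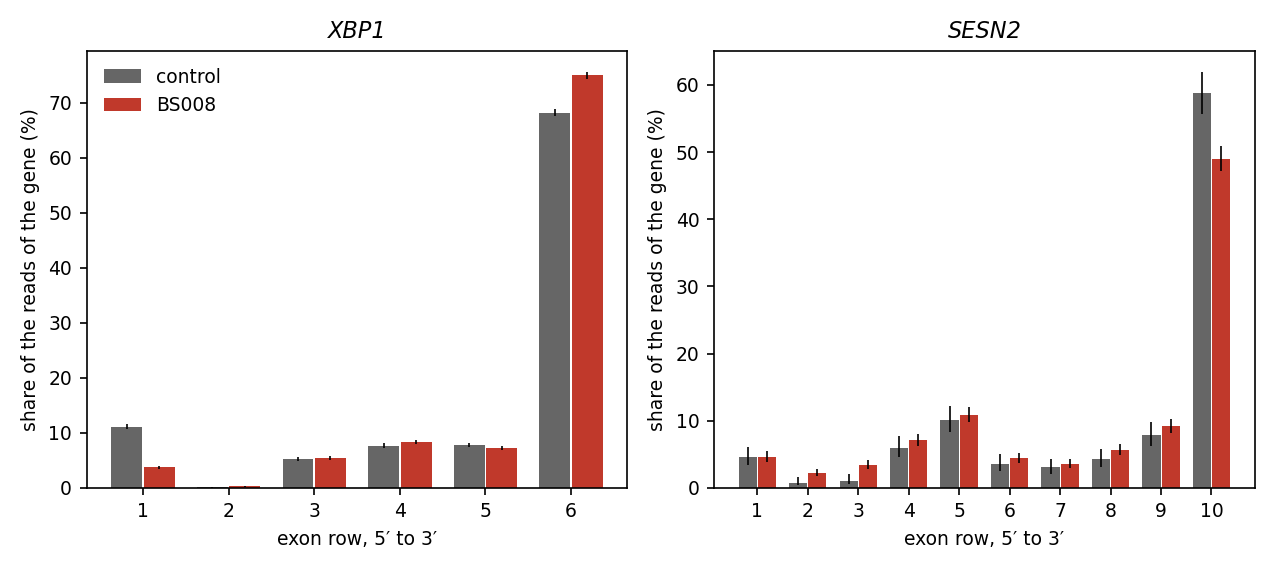
Share of the reads of XBP1 and of SESN2 on each exon row, 5′ to 3′, in the control library (grey) and the BS008 library (red), in percent with 95% Wilson intervals. The first XBP1 row goes from 11.1% to 3.70%, and the last SESN2 row from 58.8% to 49.0%.

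The other genes of the pathway came from a list of 32 genes, of which 31 were placed by structure and 30 had at least 10 counts in either library. CEBPB, a single exon, could not be placed and is given no value. Of the 30 genes, 10 were at least 2-fold higher and 0 were lower by that much, beside 6.62% and 5.11% of the runs. Their median log2 ratio was 0.52, against 0.01 over the runs. This list was also chosen with earlier results of these data known. These counts, and those by role below, therefore describe the list and are not independent support. FGF21, a secreted hormone, was below the minimum, with 6 and 0 reads. All 30 genes are named below. The naming of those within 2-fold and not among the 3 highest or 3 lowest was added after their values had been seen.

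Among the sensors and kinases, 3 of 6 were at least 2-fold higher, beside 6.62% of the runs, and these were the sensors of the unfolded protein response. ERN1 (IRE1) had 663 and 5287 reads, 8.26-fold (7.61 to 8.96). ATF6 had 2477 and 6724 reads, 2.81-fold (2.68 to 2.94), and EIF2AK3 (PERK) had 2596 and 5163, 2.06-fold (1.96 to 2.16). EIF2AK4 (GCN2), the amino acid sensor, stood at 0.922-fold, EIF2AK2 (PKR), the double-stranded RNA sensor, at 0.833-fold, and EIF2AK1 (HRI), the haem sensor, at 0.687-fold (0.669 to 0.706).

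Of the 10 ER chaperone and folding genes, 0 were past 2-fold in either direction, with a median log2 ratio of 0.06. With 6.62% of the runs higher and 5.11% lower by that much, a count of 0 among 10 genes is near the background. DNAJC3, a J-domain partner of HSPA5, was highest at 1.81-fold (1.74 to 1.88), with 4282 and 7472 reads. SDF2L1 and HYOU1 followed at 1.46-fold (1.35 to 1.59) and 1.39-fold (1.37 to 1.41), close to HSPA5 at 1.45-fold. HSP90B1 (GRP94), PDIA6, PDIA4, CALR (calreticulin) and MANF lay between 0.910-fold and 1.13-fold. The lowest was CRELD2, with 3641 and 2064 reads or 0.587-fold (0.556 to 0.620), followed by ERO1L, the ER oxidase, with 9865 and 6288 or 0.660-fold (0.639 to 0.681). DNAJB9, at 6.67-fold, was therefore above each of these chaperones and above HSPA5. The 3 genes of ER-associated degradation, SEL1L, SYVN1 and EDEM1, were at 1.45-fold, 1.43-fold and 1.29-fold, all below HERPUD1.

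Of the 11 genes of the ATF4 pathway with enough reads, 7 were at least 2-fold higher, beside 6.62% of the runs, with a median log2 ratio of 1.52. GDF15, a secreted stress cytokine, had 1593 and 46053 reads, 29.9-fold (28.5 to 31.5). NUPR1, a small stress-induced chromatin protein, had 150 and 2522 reads, 17.4-fold (14.8 to 20.7). ATF3, a transcription factor of the same family as ATF4, had 439 and 3327 reads, 7.85-fold (7.10 to 8.69). SLC3A2, the heavy chain of amino acid transporters, was at 5.68-fold, ASNS, asparagine synthetase, at 4.27-fold, and DDIT4, an inhibitor of mTORC1, at 2.89-fold. PPP1R15B, the constitutive counterpart of PPP1R15A, had 2331 and 4832 reads, 2.15-fold (2.04 to 2.26), against 15.0-fold for PPP1R15A. SLC7A11, the cystine transporter, was at 1.84-fold, AARS, alanyl-tRNA synthetase, at 1.61-fold, and STC2 at 1.16-fold. PSAT1, an enzyme of serine synthesis, was below 1, with 15416 and 12563 reads or 0.844-fold (0.824 to 0.864).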

How the data were processed

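The authors deposited, for each library, raw counts of reads per exon row and RPKM values, which scale the counts to row length and to the summed counts of the library (recomputed to within 4.72e-06). The processing notes name hg19. The aligner and counting tool are not given in the sources used here. Counts were summed over the exon rows of a gene, divided by the library total (CPM) and compared as log2 ratios after adding 0.5 CPM, for features with at least 10 counts in either library (shares needed 20 reads on the gene or run in each). A 2-fold limit was used and no test was made. Fold intervals are exact binomial, shares Wilson and levels Poisson, at 95%. Scripts were tested on simulated data. Other pseudocounts, minimums, limits, library scalings and row choices were tried. The plan was to name all 10 genes, with their first and last exon rows and rows whose share changed by at least 10 percentage points. Of the other pathway genes it was to name those past 2-fold and the 3 highest and 3 lowest. The rest of those with enough counts were added after their values had been seen. The genes and lists were chosen with earlier results of these data known. Python 3.11.15, numpy 2.4.6, scipy 1.17.1, pandas 2.3.3 and, for TMM factors, edgeR 4.0.16 in R 4.3.3 were used.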

Additional observations from a re-analysis of the deposited data

How the results depend on the processing

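No paired analysis was possible because each condition has 1 library, so no replicate could be left out either. The number of the 10 genes at least 2-fold higher was 6, 8 at a 1.5-fold limit, and 7 with TMM factors or with the longest row only, where HERPUD1 reached a log2 ratio of 1.02 and 1.53. The longest HERPUD1 row held 5.95% (control) and 9.11% (BS008) of the reads of the gene, so it stands for a small part of them. The background depended on the settings. Exon rows at least 2-fold higher and lower were 11471 and 11189 with a pseudocount of 0.1 CPM, 3020 and 3017 with 1 CPM, and 15150 and 18306 at a 1.5-fold limit, and 68432 rows had at least 100 counts. Runs were 2796 and 2048 with 0.1 CPM, 3824 and 3587 at 1.5-fold, and 2575 and 2366 of 50312 when chained within 3 kb. With a minimum of 100 counts, which all 10 genes passed, they were 1283 and 1119 of 16040. At 1.5-fold, 13 of the 30 other pathway genes were higher and 2 lower, beside 3824 and 3587 of the 24004 runs. With a limit of 5 percentage points, 2 of the 50 exon shares were higher and 2 lower, and 1 was lower by 10 points when shares were taken per length. The background over all runs was not computed for either setting, so these counts cannot be compared with it. Of the log2 ratios of the 10 genes, none changed sign under the alternatives run. The ratios of the other pathway genes were not followed one by one. Scarce genes such as CHAC1 are limited most by depth.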

Other observations

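Exon rows within 20 kb of the 10 genes, on either strand, were counted as a description of their surroundings. Of 71 such rows with at least 10 counts in either library, 1 was at least 2-fold higher and 0 were lower by that much, beside 3.73% and 3.79% of all exon rows, and the 1 was the plus-strand row inside DDIT3 described above. The median log2 ratio of these rows ran from -0.25 around PPP1R15A (4 rows) to 0.54 around DNAJB9 (4 rows, highest 0.98). It was 0.41 around CHAC1 (3 rows) and 0.34 around DDIT3 (37 rows), and HERPUD1 and SESN2 had 0 such rows.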
